A study of Rattus norvegicus with 12 samples.

Results

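Collagen chains are the protein products of the Col genes, and 25 of them could be followed among the 14329 genes measured in rat laryngeal muscle. They were the genes whose symbol in the array's annotation has the form Col, number, a, number. They were represented by 27 probe sets, and for Col6a4, which had 3, the one with the highest mean was used. RefSeq lists 44 rat genes with such symbols, and the other 19, among them Col4a2, Col6a1, Col15a1 and Col18a1, were not analysed here. The chains were grouped by the kind of collagen they build: 6 chains of fibrillar types I, III and V, 3 of basement membrane type IV, 7 of cartilage collagens, 3 fibril-associated chains, 4 transmembrane or anchoring chains and 2 of the type VI and VIII family.

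The 12 arrays came from male F344 rats and fall into 4 groups of 3: injured posterior cricoarytenoid muscle (PCA, the muscle that opens the glottis), control PCA, injured adductor complex (AC, the muscles that close it) and control AC. Injured rats had the recurrent laryngeal nerve cut on one side with 1 cm removed, and in control rats the nerve was exposed in the same way but not injured. Both were killed 1 week later. The labels give 10 rats per surgery group but not which rat gave an array, whether PCA and AC arrays share rats or whether specimens were pooled, so p-values measure the spread between arrays, which may be technical. All values below are log2 expression values as the authors deposited them, and a difference of 1 is a doubling.

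Collagens are triple helices of 3 chains that are hydroxylated and folded inside the cell, secreted, trimmed and crosslinked. Fibrillar collagens form the tensile fibres of the connective tissue sheaths around muscle fibres, type IV collagens form the sheet of the basement membrane around each muscle fibre and vessel, and types II, IX, X and XI are the collagens of cartilage. In skeletal muscle most collagen is made by fibroblast-lineage cells, and denervated muscle is known for a gain of interstitial connective tissue.

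Markers of skeletal muscle were high on every array, with list means between 12.31 and 13.17 for 7 genes. The thyroid and parathyroid list stood apart on 3 arrays, at 10.82 on injured PCA array 2, 11.01 on control PCA array 1 and 9.13 on injured AC array 2. On the other 9 it lay at 6.12 to 7.44. These 3 arrays are called thyroid-rich below, and fits without them keep 2 arrays in each of the 3 groups concerned. Of the list's 8 genes, 0 passed the test in any comparison. That does not show the groups to be alike, since the spread was wide (SD of list means 2.34 in injured PCA and 2.49 in control PCA). Between control PCA and control AC, the median difference of the 8 genes was 1.94. Fewer cells of a type and less RNA per cell cannot be told apart in such whole-tissue samples.

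One week after nerve injury, the PCA had more of all 6 type I, III and V chains and less of most cartilage chains. These 6 are called the fibrillar chains below. Types II, XI and XXVII also form fibres, but their chains are counted here with the cartilage chains. Those chains (Col2a1, Col11a1, Col11a2 and Col27a1) all had differences below 0, and Col2a1 and Col11a2 passed the test. Of the 25 chains, 9 rose, 6 fell and 10 did not pass the test (limma over all genes, Benjamini-Hochberg adjusted p up to 0.05), where 25.8% of all genes passed it, 13.3% upward and 12.5% downward. The median difference of the 25 was 0.12, beside -0.03 over all genes. The values of the 3 injured arrays lay wholly above those of the 3 controls for 11 of the 25 chains and wholly below for 6. Over all genes the share was 37% (18.2% above and 18.8% below).

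**Figure D1:**
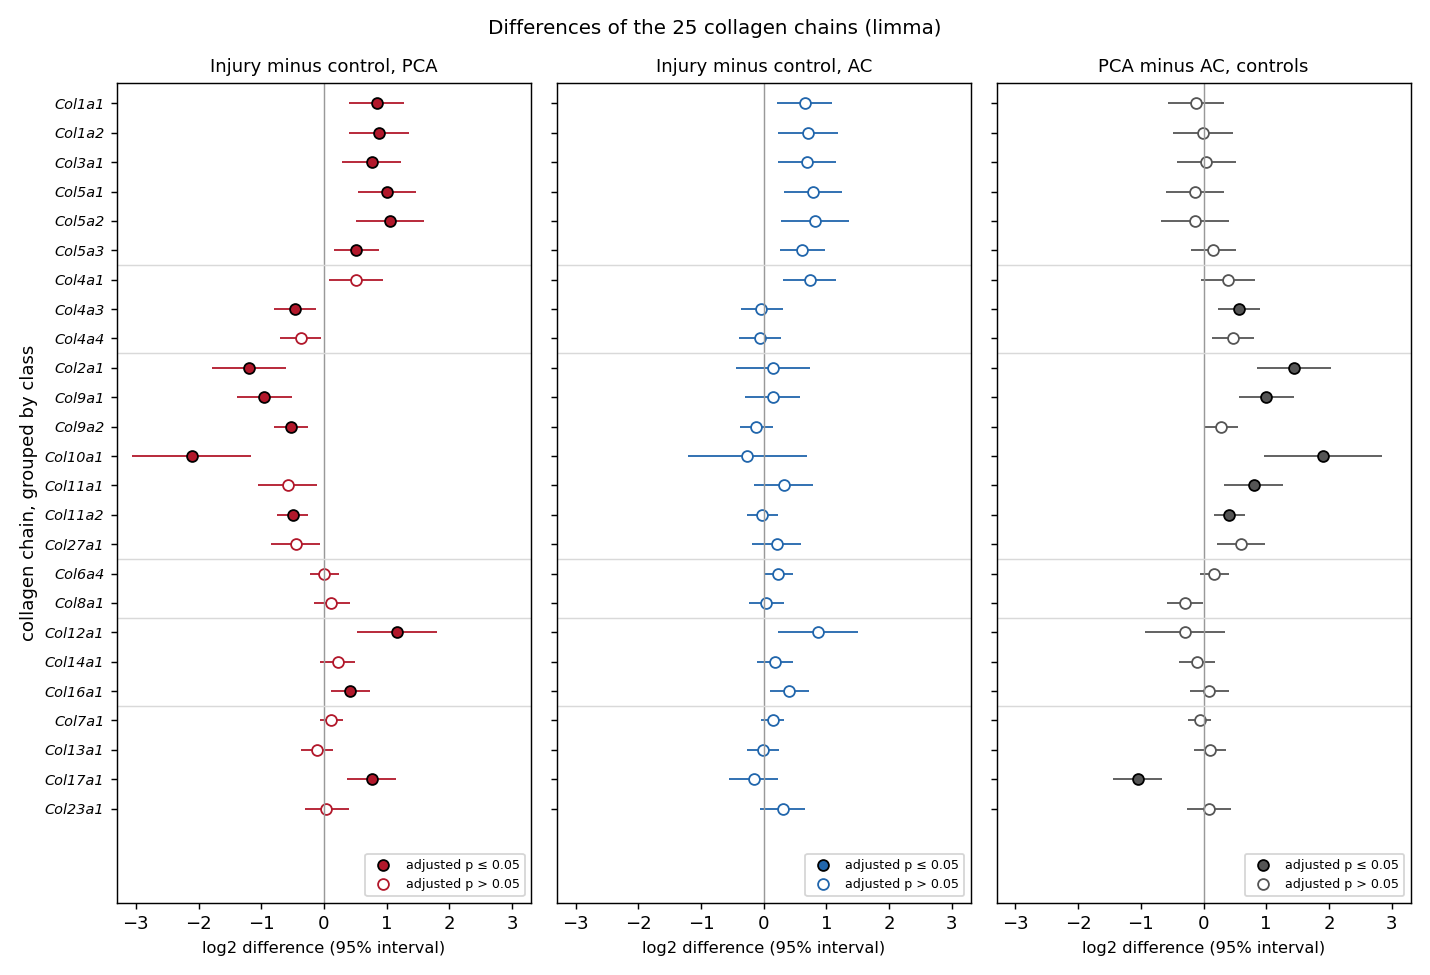
Difference in log2 value of each of the 25 collagen chains (rows, grouped by class), with its 95% interval, for injury minus control in PCA, injury minus control in AC, and PCA minus AC in control rats. Filled points passed an adjusted p of 0.05 in limma: 15 in the PCA panel, 0 in the AC panel and 7 in the control panel.

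The promoters of 4 chains are shown. Col1a2 was taken from the chains that rose in the injured PCA, and Col10a1 as the largest fall. Col4a3 and Col4a4 were taken as a pair transcribed away from each other from neighbouring starts. Of this pair, Col4a3 fell and Col4a4 did not pass the test. Each promoter runs from 250 bases before to 50 bases after the RefSeq start in GRCr8. Capitals mark CCAAT and TATAAA or their reverse complements ATTGG and TTTATA, searched on both strands. Col1a2 lies at chr4:33518307-33518606, plus strand, with ATTGG at -221 and TATAAA at -170 from the listed start. The 50 bases after that start open with ATG and hold no stop codon in its frame. The listed start may therefore be that of translation, and the Col1a2 positions may not be distances from the start of transcription. Col10a1 lies at chr20:39737286-39737585, plus strand, with CCAAT at -123 and TATAAA at -31. Col4a3 lies at chr9:91323740-91324039, plus strand, Col4a4 at chr9:91323528-91323827, minus strand, and their windows share 88 bases.
Col1a2: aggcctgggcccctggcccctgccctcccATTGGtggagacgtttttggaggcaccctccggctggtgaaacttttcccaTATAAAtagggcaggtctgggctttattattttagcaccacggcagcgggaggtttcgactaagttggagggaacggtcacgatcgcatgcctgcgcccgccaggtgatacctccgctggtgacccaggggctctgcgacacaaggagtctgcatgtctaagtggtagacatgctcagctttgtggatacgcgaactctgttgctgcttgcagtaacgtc
Col10a1: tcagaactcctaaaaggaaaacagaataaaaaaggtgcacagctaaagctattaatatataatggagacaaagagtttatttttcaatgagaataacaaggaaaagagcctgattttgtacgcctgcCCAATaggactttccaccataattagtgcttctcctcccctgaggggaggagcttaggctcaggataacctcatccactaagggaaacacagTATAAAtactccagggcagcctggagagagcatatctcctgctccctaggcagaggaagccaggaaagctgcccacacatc
Col4a3: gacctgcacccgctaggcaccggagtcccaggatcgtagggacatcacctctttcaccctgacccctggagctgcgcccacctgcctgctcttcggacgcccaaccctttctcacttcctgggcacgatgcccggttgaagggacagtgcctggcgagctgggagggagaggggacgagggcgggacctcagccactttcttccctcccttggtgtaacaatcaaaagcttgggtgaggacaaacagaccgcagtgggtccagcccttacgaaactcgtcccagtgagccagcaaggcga
Col4a4: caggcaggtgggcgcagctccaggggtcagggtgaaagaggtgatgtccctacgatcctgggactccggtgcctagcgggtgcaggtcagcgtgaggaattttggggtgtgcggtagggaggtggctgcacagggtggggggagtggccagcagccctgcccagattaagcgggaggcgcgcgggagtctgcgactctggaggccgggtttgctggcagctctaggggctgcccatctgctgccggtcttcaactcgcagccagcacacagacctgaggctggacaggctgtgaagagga

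Neither motif occurs in the windows of Col4a3 and Col4a4. Among all 33469 promoters of the same length, 37.5% hold CCAAT and 14.2% hold TATAAA on either strand. Of the chains that rose after injury in PCA, 6 of 9 had a promoter in the table, and 3 of these held CCAAT and 2 held TATAAA. Of those that fell, 5 of 6 had one, and 1 held each motif. Among the chains that did not pass, 9 of 10 had one, with CCAAT in 3 and TATAAA in 1. A match is a run of letters, not a shown binding site.

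All 6 chains of types I, III and V rose in the injured PCA, by 0.51 to 1.05 with a median of 0.86. Col1a1 and Col1a2 encode the chains of type I collagen, the main fibre of tendon and muscle sheaths. Col1a1 stood at 13.32, 13.10 and 12.94 in injured PCA, against 12.05, 12.51 and 12.27 in control PCA. Col1a2 stood at 12.97, 12.67 and 12.43 in injured PCA, against 11.55, 12.06 and 11.83 in control PCA. Every injured array was above every control for both, and the rises were 0.84 ± 0.20 (SE) for Col1a1 (limma adjusted p = 0.0104) and 0.88 ± 0.22 for Col1a2 (limma adjusted p = 0.0131). Col3a1, the single chain of type III collagen, which mixes with type I in pliable tissue, stood at 11.97, 11.82 and 11.42 in injured PCA, against 10.70, 11.23 and 11 in control PCA. It rose by 0.76 ± 0.21 (limma adjusted p = 0.0226), and its lowest injured array was only 0.19 above its highest control.

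Type V collagen sits inside type I fibres and limits their width. Col5a1 stood at 9.81, 9.43 and 9.40 in injured PCA, against 8.40, 8.76 and 8.46 in control PCA. Col5a2 stood at 10.33, 9.68 and 9.62 in injured PCA, against 8.61, 8.93 and 8.94 in control PCA. Both about doubled, with rises of 1.01 ± 0.21 for Col5a1 (limma adjusted p = 0.00549) and 1.05 ± 0.25 for Col5a2 (limma adjusted p = 0.00985). Col5a3, a less widespread type V chain, stood at 8.81, 8.40 and 8.30 in injured PCA, against 7.97, 8.06 and 7.94 in control PCA. Its rise of 0.51 ± 0.16 was the smallest of the 6 (limma adjusted p = 0.0363).

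**Figure D2:**
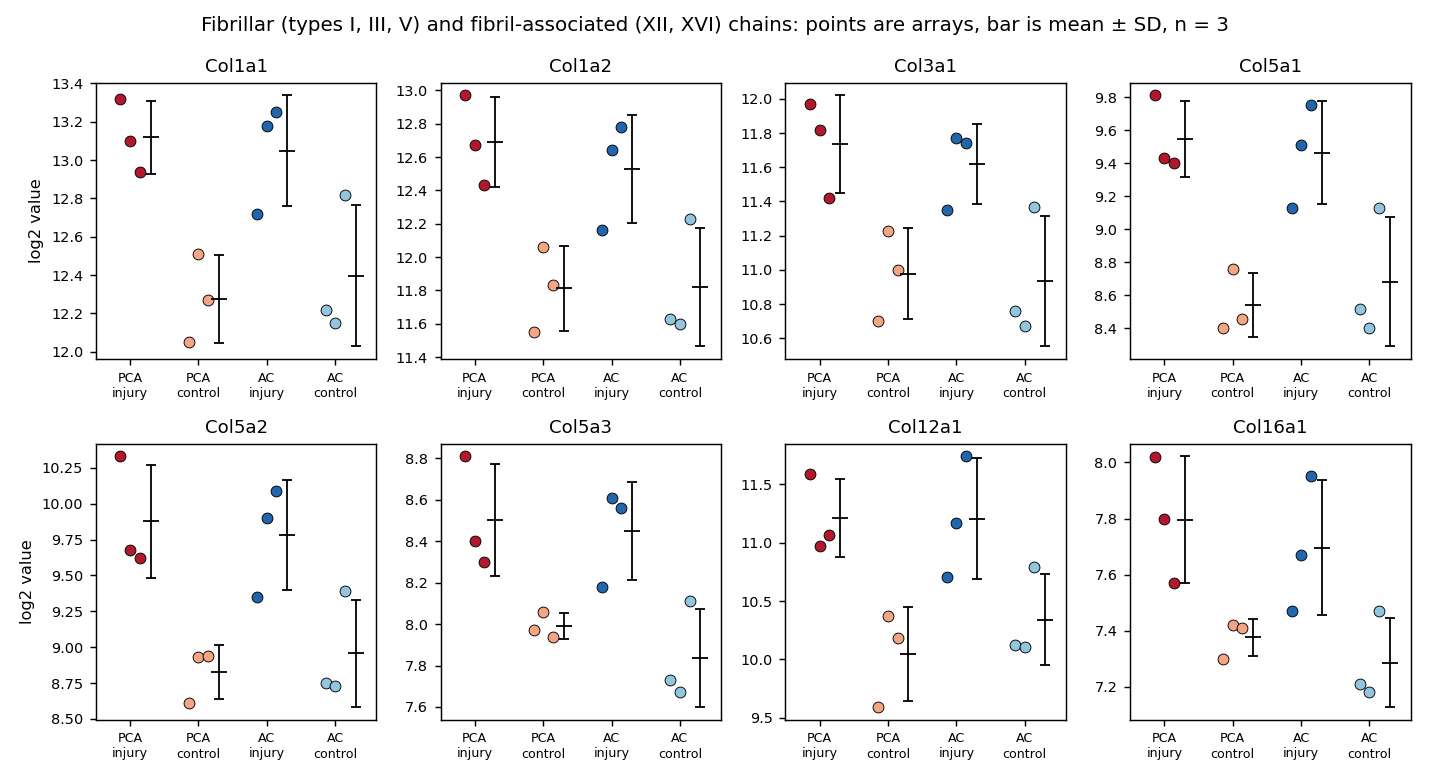
Log2 value of the 6 fibrillar and 2 fibril-associated chains on each array (points), with mean and SD of the 3 arrays of each group (bars): injured PCA, control PCA, injured AC, control AC. Injured PCA lies wholly above control PCA in all 8 panels, while injured AC overlaps control AC in all but Col5a3.

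The arrays of a group ranked alike across the fibrillar chains. Among injured PCA arrays, array 1 was highest and array 3 lowest for 6 of 6 chains, and among control AC arrays, array 3 was highest and array 2 lowest for 6 of 6. Without injured PCA array 1, or without control PCA array 1, 3 of the 6 still passed the test. Without the 3 thyroid-rich arrays only Col5a1 passed (0.995, limma adjusted p = 0.0474), and the other 5 had differences of 0.555 to 1.04. That fit has fewer arrays, and calls over all genes fell too, from 3697 to 2335. Whether thyroid tissue or the loss of arrays lay behind lost calls, here and below, was not tested.

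Fibril-associated chains coat the surface of collagen fibres. Col12a1, whose type XII collagen binds type I fibres in tendon and muscle sheaths, stood at 11.59, 10.97 and 11.07 in injured PCA, against 9.59, 10.37 and 10.18 in control PCA. It had the largest rise of the 25 chains, 1.16 ± 0.29 (limma adjusted p = 0.0141), and control array 1 was the lowest by 0.59. The call was lost without the 3 thyroid-rich arrays (1.055, limma adjusted p = 0.0756), without injured PCA array 1 (limma adjusted p = 0.0573) and without control PCA array 1 (limma adjusted p = 0.0536). Col16a1, a chain found on small fibres, stood at 8.02, 7.80 and 7.57 in injured PCA, against 7.30, 7.42 and 7.41 in control PCA, a rise of 0.42 ± 0.14 (limma adjusted p = 0.0471) that fell short of the threshold in 13 of 22 alternative fits, among them the fit without the thyroid-rich arrays (limma adjusted p = 0.221). Col14a1, the related type XIV chain, stood at 10.98, 10.84 and 10.84 in injured PCA, against 10.37, 10.83 and 10.81 in control PCA. Its groups were apart by only 0.01, and its difference of 0.22 ± 0.13 did not pass (limma adjusted p = 0.258).

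The genes that process collagen were largely higher as well. Of 27 measured genes for synthesis, folding and crosslinking, 16 rose and 3 fell in the injured PCA, with a median difference of 0.50. The largest shifts against their error were in Crtap, part of the prolyl 3-hydroxylation complex (0.87 ± 0.12, limma adjusted p = 0.000631), Loxl1, a lysyl oxidase that crosslinks fibres (1.05 ± 0.14, limma adjusted p = 0.000658), and P4ha3, a subunit of prolyl 4-hydroxylase (2.28 ± 0.35, limma adjusted p = 0.00124). P4ha1, the first listed subunit of that enzyme, differed by 0.03 ± 0.12. The 3 that fell were Adamts3, which trims the N-terminal propeptide of procollagen (-1.06 ± 0.26), P3h2, a prolyl 3-hydroxylase known to act on type IV collagen (-0.53 ± 0.15), and Loxl3, another lysyl oxidase (-0.41 ± 0.11). With the 3 thyroid-rich arrays left out, 8 of the 27 rose and 2 fell.

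Of 6 enzymes that cleave collagen, 5 rose in the injured PCA. They included the gelatinase Mmp9 (3.95 ± 0.42), the membrane-bound collagenase Mmp14 (1.58 ± 0.22) and cathepsin K, Ctsk (1.32 ± 0.21). Mmp8, the neutrophil collagenase, differed by 0.73 ± 0.32 and did not pass (limma adjusted p = 0.122). Of 12 measured proteins that organise fibres, 5 rose and 4 fell. Lum, a small proteoglycan on collagen fibres, rose by 1.18 ± 0.17, while its relatives Fmod and Omd fell by 1.45 ± 0.14 and 1.46 ± 0.20. Of 9 receptors, 3 rose and 1 fell, namely the beta 1 integrin Itgb1 (0.45 ± 0.10), the uptake receptor Mrc2 (0.55 ± 0.15) and Itga11, an integrin chain for fibrillar collagen (0.67 ± 0.20) upward, and Itga10, an integrin chain of cartilage cells, downward (-1.24 ± 0.22).

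Several marker lists of cell types shifted in the same comparison, some upward and some downward. Fibroblast markers averaged 11.11, 10.98 and 10.95 in injured PCA, against 9.98, 10.41 and 10.16 in control PCA, and 7 of 10 rose. That list shares Dcn and Lum with the fibre organisers. Macrophage markers rose for 8 of 8, and averaged 10.02 to 10.49 in injured PCA, against 8.31 to 9.03 in control PCA. Endothelial markers, 7 genes, had 0 calls in limma and 0 at an unadjusted p under 0.05. Adipocyte markers fell for 7 of 7 genes, with list means of 7.11 to 7.84 in injured PCA, against 8.68 to 9.20 in control PCA. Of 6 tendon markers, which include the fibre organisers Fmod and Kera, 4 fell and 1 rose. Among Schwann cell markers 2 of 5 fell, and among smooth muscle markers 1 of 5, where 12.5% of all genes fell. Skeletal muscle markers fell for 2 of 7 genes, and 6 of 7 had an unadjusted p under 0.05, where 36.9% of all genes did. Their list means were 12.31, 12.62 and 13.03 in injured PCA, against 13.05, 13.17 and 13.09 in control PCA, so injured array 1, the highest for the fibrillar chains, was the lowest for muscle markers, and injured array 3 the reverse. The part that these shifts have in the collagen differences was not tested.

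Basement membrane chains did not move as a group. Col4a1, a chain of the common type IV network, stood at 9.69, 9.54 and 9.12 in injured PCA, against 8.99, 9.08 and 8.75 in control PCA. The groups were apart by only 0.04, and the difference of 0.51 ± 0.20 did not pass (limma adjusted p = 0.0787). Col4a3, a chain of the specialised type IV network known from kidney and lung, stood at 6.94, 7.45 and 6.95 in injured PCA, against 7.86, 7.43 and 7.42 in control PCA. It fell by 0.46 ± 0.15 (limma adjusted p = 0.0489) although the groups overlapped, and it missed the threshold in 16 of 22 alternative fits. Col4a4, its partner chain in that network, differed by -0.37 ± 0.15 and did not pass (limma adjusted p = 0.0942), with 6.65 to 7.16 in injured PCA and 7.04 to 7.58 in control PCA. The highest injured array and the highest control array of both chains were thyroid-rich, and without the 3 such arrays both passed, Col4a3 at -0.48 (limma adjusted p = 0.0219) and Col4a4 at -0.35 (limma adjusted p = 0.0318).

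Cartilage chains were lower in the injured PCA for all 7 measured, by a median of -0.58, and 5 of them passed the test. Col2a1, the chain of type II collagen and the main collagen of hyaline cartilage, stood at 9.83, 9.50 and 8.98 in injured PCA, against 10.89, 10.26 and 10.76 in control PCA. It fell by 1.20 ± 0.27 (limma adjusted p = 0.00809), with no overlap. Col10a1, the chain of type X collagen made by hypertrophic cartilage cells, had the largest difference of the 25: it stood at 8.50, 9.23 and 7.92 in injured PCA, against 10.72, 10.16 and 11.11 in control PCA. That is 4.33-fold lower, with a log2 difference of -2.11 ± 0.43 (limma adjusted p = 0.00491).

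Type IX collagen decorates type II fibres. Col9a1 stood at 7.37, 7.35 and 7.02 in injured PCA, against 8.15, 7.84 and 8.60 in control PCA, and fell by 0.95 ± 0.20 (limma adjusted p = 0.00617). Col9a2 stood at 7.51, 7.62 and 7.38 in injured PCA, against 7.86, 8.0 and 8.22 in control PCA, and fell by 0.52 ± 0.12 (limma adjusted p = 0.00955). Neither chain had an injured array inside the control range. Type XI collagen forms the core of cartilage fibres. Col11a2 stood at 7.68, 7.62 and 7.61 in injured PCA, against 8.15, 7.89 and 8.37 in control PCA, and fell by 0.50 ± 0.11 (limma adjusted p = 0.00841). Without the 3 thyroid-rich arrays that call was lost (-0.485, limma adjusted p = 0.0668). Col11a1, its partner, stood at 9.01, 8.47 and 8.34 in injured PCA, against 9.07, 9.02 and 9.48 in control PCA. Its difference of -0.58 ± 0.21 did not pass (limma adjusted p = 0.0673), and injured array 1 lay within 0.01 of the lowest control. Col27a1, a chain of developing cartilage, differed by -0.45 ± 0.17 and did not pass (limma adjusted p = 0.0795).

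Cartilage markers that are not collagens moved in the same comparison. Their mean was 8.12, 8.25 and 8.10 in injured PCA, against 9.34, 9.19 and 9.59 in control PCA, and 13 of 14 fell while Epyc, a small proteoglycan of the epiphysis, rose by 1.16 ± 0.35. Acan, the first listed and the main proteoglycan of cartilage, fell by 1.90 ± 0.35. The part of cartilage in the specimens in these differences was not tested. Between 4 and 7 cartilage chains passed under each of the 22 alternative fits, and Col2a1, Col9a1, Col9a2 and Col10a1 passed in all of them.

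**Figure D3:**
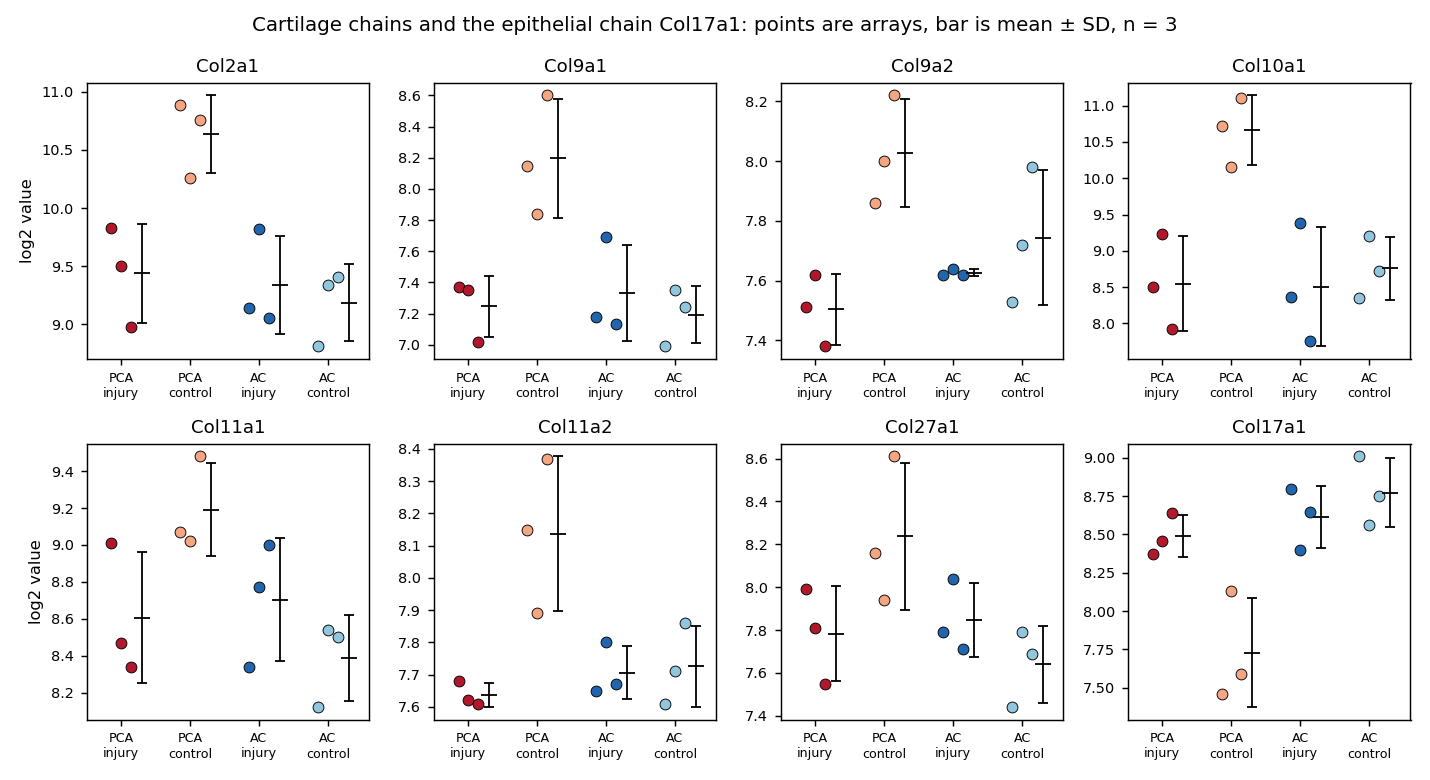
Log2 value of the 7 cartilage chains and of Col17a1 on each array (points), with mean and SD of the 3 arrays of each group (bars): injured PCA, control PCA, injured AC, control AC. Control PCA is the highest group for all 7 cartilage chains and the lowest for Col17a1.

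Among transmembrane and anchoring chains, Col17a1 alone passed the test. It encodes the type XVII collagen that fastens basal epithelial cells to the basement membrane. It stood at 8.37, 8.46 and 8.64 in injured PCA, against 7.46, 8.13 and 7.59 in control PCA, and rose by 0.76 ± 0.18 (limma adjusted p = 0.00948). Squamous epithelium markers averaged 10.64, 11 and 11.23 in injured PCA, against 8.45, 10.15 and 8.05 in control PCA, and 9 of 9 rose; in both, control PCA array 2 was the highest control. Whether more epithelium in the injured specimens has a part in the Col17a1 value was not tested. Without the 3 thyroid-rich arrays Col17a1 differed by 0.645 (limma adjusted p = 0.0643).

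The remaining chains differed little. Col8a1, a short-chain collagen of vessel walls, stood at 9.40, 9.28 and 9.15 in injured PCA, against 9.18, 9.19 and 9.09 in control PCA, a difference of 0.12 ± 0.13. Col6a4, Col7a1 (the anchoring fibril chain), Col13a1 (a transmembrane chain of muscle and its nerve endings) and Col23a1 (another transmembrane chain) had differences between -0.11 and 0.12, and none of them passed.

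In the AC, no collagen chain passed the test after nerve injury, where 1.91% of all genes did (1.15% upward and 0.761% downward). Limma called 0 of 25. It gave an unadjusted p under 0.05 for 10 of 25, a larger share than the 20.3% of all genes. The median difference was 0.21, beside 0.02 over all genes, and 18 of 25 were above 0. Injured arrays lay wholly above controls for 3 chains, Col5a3, Col4a1 and Col7a1, and wholly below for 0, where 28.4% of all genes had groups that did not overlap (15.3% above and 13.1% below).

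The 6 fibrillar chains had differences of 0.61 to 0.82 in the AC, with adjusted p of 0.0742 to 0.107 in limma. Col1a1 stood at 12.72, 13.18 and 13.25 in injured AC, against 12.22, 12.15 and 12.82 in control AC, a difference of 0.65 with a 95% interval of 0.21 to 1.09. Col1a2 stood at 12.16, 12.64 and 12.78 in injured AC, against 11.63, 11.60 and 12.23 in control AC. Col3a1 stood at 11.35, 11.77 and 11.74 in injured AC, against 10.76, 10.67 and 11.37 in control AC. In all 3, injured array 1 overlapped control array 3. Col5a1 stood at 9.13, 9.51 and 9.75 in injured AC, against 8.52, 8.40 and 9.13 in control AC, where the lowest injured array equalled the highest control. Col5a2 stood at 9.35, 9.90 and 10.09 in injured AC, against 8.75, 8.73 and 9.39 in control AC. Col5a3 stood at 8.18, 8.61 and 8.56 in injured AC, against 7.73, 7.67 and 8.11 in control AC, the only fibrillar chain whose groups did not overlap. Injured array 1 was the lowest injured AC array for 6 of 6 chains; without it, Col5a1 and Col5a3 passed, and without control AC array 3, Col5a1 did. Fibroblast markers averaged 10.97, 11.04 and 11.17 in injured AC, against 10.59, 10.55 and 10.94 in control AC, so that control array 3 was the highest control here too. Limma called 0 of the 10, with 5 at an unadjusted p under 0.05, and 1 of 8 macrophage markers rose. All 8 macrophage markers had injured arrays wholly above controls, with a median difference of 0.69 and 6 at an unadjusted p under 0.05. Their part in the fibrillar values was not tested.

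Col4a1 stood at 9.04, 9.49 and 9.33 in injured AC, against 8.50, 8.23 and 8.93 in control AC, a difference of 0.73 ± 0.20 that missed the threshold (limma adjusted p = 0.0775). Col12a1 stood at 10.71, 11.17 and 11.74 in injured AC, against 10.12, 10.11 and 10.79 in control AC, a difference of 0.87 ± 0.29 (limma adjusted p = 0.135). Col16a1 stood at 7.47, 7.67 and 7.95 in injured AC, against 7.21, 7.18 and 7.47 in control AC. These are the chains with the largest differences outside the fibrillar class, and in Col12a1 and Col16a1 injured array 1 reached the control range. Col14a1 at 10.85, 10.99 and 11.01 in injured AC, against 10.71, 10.63 and 10.98 in control AC, and Col8a1 at 9.48, 9.33 and 9.65 in injured AC, against 9.14, 9.59 and 9.61 in control AC, overlapped. Endothelial markers had a median AC difference of 0.32, with 0 of 7 called and 4 at an unadjusted p under 0.05 in limma. For 5 of the 7, injured arrays lay wholly above controls. Injured arrays lay wholly below controls for 6 of 7 skeletal muscle and 5 of 5 Schwann cell markers, with 0 called. The part of these shifts in the chain values was not tested.

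The cartilage chains had AC differences between -0.26 and 0.32, with 0 called by limma and 0 at an unadjusted p under 0.05. Col2a1 stood at 9.14, 9.82 and 9.05 in injured AC, against 8.81, 9.34 and 9.41 in control AC. Col10a1 stood at 8.37, 9.38 and 7.76 in injured AC, against 8.35, 9.21 and 8.72 in control AC. Array 2 was the highest injured AC array for 6 of the 7 chains, and it was also one of the thyroid-rich arrays. Col9a1 stood at 7.18, 7.69 and 7.13 in injured AC, against 6.99, 7.35 and 7.24 in control AC. Col9a2 stood at 7.62, 7.64 and 7.62 in injured AC, against 7.53, 7.72 and 7.98 in control AC. Type XI chains overlapped too: Col11a1 stood at 8.34, 8.77 and 9.0 in injured AC, against 8.12, 8.54 and 8.50 in control AC, and Col11a2 at 7.65, 7.80 and 7.67 in injured AC, against 7.61, 7.71 and 7.86 in control AC. Non-collagen cartilage markers had means of 8.36 to 8.64 in injured AC, against 8.42 to 9.12 in control AC, and 0 of 14 passed in limma, 4 of them with an unadjusted p under 0.05.

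Col17a1 stood at 8.80, 8.40 and 8.65 in injured AC, against 9.01, 8.56 and 8.75 in control AC, a difference of -0.16 ± 0.18. Col4a3 stood at 7.07, 7.03 and 6.81 in injured AC, against 6.93, 7.03 and 7.06 in control AC. Squamous markers differed little between these groups, with means of 10.79 to 11.27 in injured AC, against 11.21 to 11.65 in control AC, and 0 of 9 passed. Of the genes for synthesis, folding and crosslinking, 2 of 27 rose in the AC: Colgalt1, which glycosylates collagen (0.52 ± 0.10, limma adjusted p = 0.0354), and Plod2, a lysyl hydroxylase (1.31 ± 0.26, limma adjusted p = 0.0392). The list's median difference was 0.43 and 19 of 27 had an unadjusted p under 0.05, while the number passing was between 0 and 8 when each array was left out in turn and 0 without the 3 thyroid-rich arrays. Limma called 0 of the fibre organisers, receptors and cleaving enzymes in the AC, with 7 of 12, 3 of 9 and 3 of 6 at an unadjusted p under 0.05.

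Whether nerve injury acted differently on the collagen chains of the 2 muscles was tested by the injury effect in AC minus that in PCA. Limma called 0 of 25 chains, where 0.154% of all genes passed (0.0279% upward and 0.126% downward). It gave an unadjusted p under 0.05 for 8 of 25, a larger share than the 15.7% of all genes. The 8 were the 7 cartilage chains and Col17a1. For fibrillar chains the median was -0.18 and the range -0.23 to 0.10, and the interval for Col1a1 (-0.81 to 0.43) allows a smaller or larger effect in either muscle. For cartilage chains all 7 estimates were above 0, from 0.41 to 1.86. Col9a1 came nearest to the threshold, at 1.09 ± 0.29 (limma adjusted p = 0.0944), beside Col2a1 at 1.35 ± 0.38 (limma adjusted p = 0.112) and Col10a1 at 1.86 ± 0.61 (limma adjusted p = 0.161). Col17a1 had -0.92 ± 0.25 (limma adjusted p = 0.102). Without control PCA array 2, Col9a1, Col11a2 and Col17a1 passed.

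The muscles were also compared in control rats, PCA against AC. These values share the control PCA arrays with the injury effect in PCA. Of the 25 chains, 6 were higher in PCA and 1 was lower, where 10.6% of all genes passed (3.24% higher and 7.39% lower), and the median was 0.10, beside 0.04 over all genes. The groups did not overlap for 8 chains that were higher and 1 that was lower, as for 33.7% of all genes (17.7% higher and 15.9% lower). None of the 6 fibrillar chains passed in limma, with differences from -0.14 to 0.15, and 0 had an unadjusted p under 0.05. Over all genes, 26.6% did.

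All 7 cartilage chains had differences above 0 in control PCA against control AC, with a median of 0.80, and 5 passed the test. Col2a1 was 1.45 ± 0.27 higher (limma adjusted p = 0.00719), Col10a1 1.90 ± 0.43 (limma adjusted p = 0.0177) and Col9a1 1.00 ± 0.20 (limma adjusted p = 0.0102). These values, given by array above, show control PCA apart from the other 3 groups in the plot of cartilage chains. Col11a1 (0.80 ± 0.21) and Col11a2 (0.41 ± 0.11) passed too, while Col9a2 (0.28 ± 0.12) and Col27a1 (0.60 ± 0.17, limma adjusted p = 0.0511) did not. Without the 3 thyroid-rich arrays the calls of Col11a1 (limma adjusted p = 0.105) and Col11a2 (limma adjusted p = 0.144) were lost. The non-collagen cartilage markers averaged 9.19 to 9.59 in control PCA, against 8.42 to 9.12 in control AC. Of the 14, 13 had differences above 0, while 6 passed as higher and 1, Epyc, as lower. Those 7 calls became 0 without the 3 thyroid-rich arrays, 1 without control PCA array 3, 2 without control PCA array 1 or control AC array 1, and 3 without control AC array 3. The part of these markers in the collagen values was not tested. The count of 5 cartilage chains fell to 3 without the thyroid-rich arrays, to 1 without control AC array 1, to 2 without control PCA array 1 or 3 or control AC array 3, and to 3 without control AC array 2.

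Col17a1 was 1.05 ± 0.18 lower in control PCA than in control AC (limma adjusted p = 0.00499), and all 9 squamous markers were lower too, with list means of 8.05 to 10.15 in control PCA, against 11.21 to 11.65 in control AC. That shift's part in the Col17a1 value was not tested. Col4a3 was higher in control PCA (0.56 ± 0.15, limma adjusted p = 0.0395), and its partner Col4a4 did not pass (0.47 ± 0.15, limma adjusted p = 0.0738). Among the processing genes, Adamts3 was higher (1.41 ± 0.26) and Crtap lower (-0.50 ± 0.12) in control PCA. All 6 collagen-cleaving enzymes had differences below 0, and 4 passed, among them Mmp9 (-2.80 ± 0.42) and Ctsk (-0.84 ± 0.21). Fibroblast markers had differences below 0 for 9 of 10 genes, and 5 passed. Their list means were 9.98 to 10.41 in control PCA, against 10.55 to 10.94 in control AC. All 7 adipocyte markers (median 1.48) and all 6 tendon markers had differences above 0, of which 6 and 2 passed. All 8 macrophage markers had differences below 0, with 3 passing and 7 not overlapping. The part of these shifts in the collagen values was not tested.

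**Figure D4:**
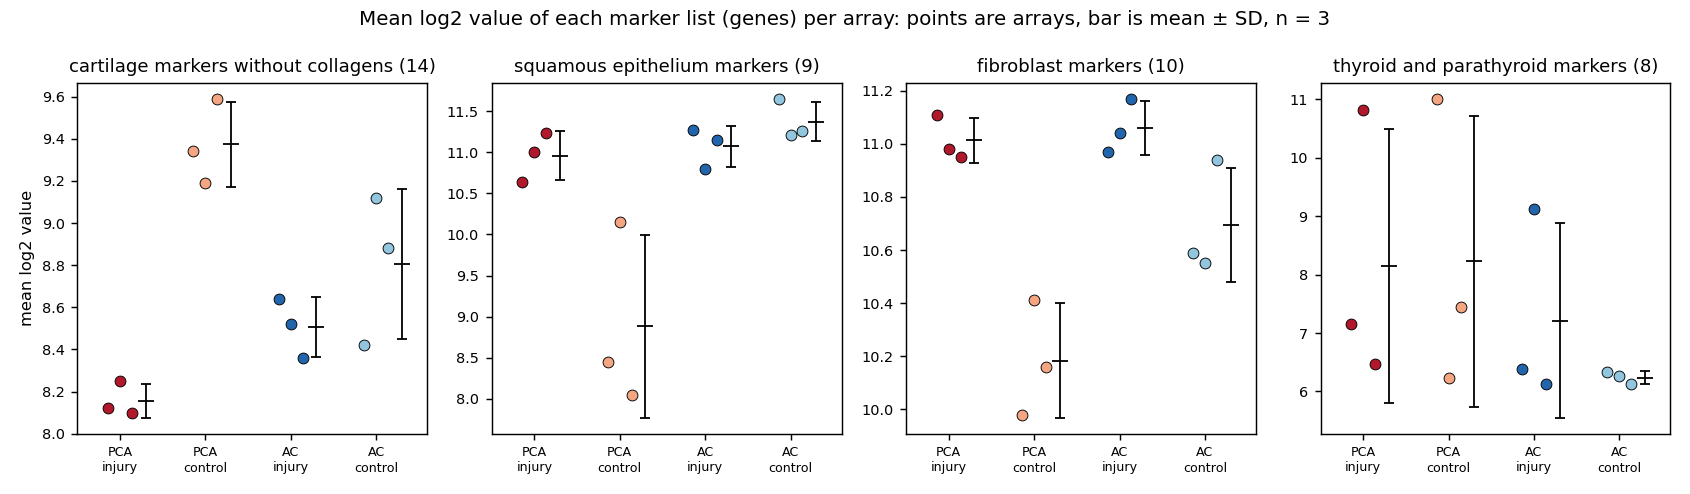
Mean log2 value per array of 4 marker lists, with mean and SD of the 3 arrays of each group (bars): injured PCA, control PCA, injured AC, control AC. Control PCA is highest for cartilage markers and lowest for squamous and fibroblast markers, and 3 arrays stand above 9 for thyroid and parathyroid markers.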

How the data were processed

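Total RNA (100 ng) from laryngeal muscle specimens of 30 to 50 mg was labelled with biotin and hybridised to rat whole-transcript arrays, per the labels' protocols. The authors deposited 1 log2 value per probe set and array, and the base was taken as 2 from how far the values spread. The submitters' processing notes name RMA and Partek, with no version or role. Since RMA quantile-normalises, each difference is relative to the rest of its array.

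Of 27342 probe sets, the platform annotation gave 15103 a single symbol, of which 15067 matched RefSeq GRCr8. The probe set with the highest mean stood for each gene. One limma model (3.58.1, R 4.3.3) with 4 group means was fitted to 12 arrays and 14329 genes, with 8 residual and 3.14 prior degrees of freedom. Tests were two-sided. The number of arrays limits the precision. The fit was tested on simulated data whose noise was independent between genes. That leaves out shifts shared by the genes of an array. Promoter sequences are RefSeq's.

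The chains, lists and naming rule were chosen with earlier results of these data known. Chains past the threshold in any comparison, and the highest of each class, are given by array. From other lists, the 3 members with the smallest p in either injury comparison, the first listed and those against the rest may be named. Alternatives left out each array, the dim genes or the other groups, or changed the scaling, the probe set, the variance prior, the weights, the block or the threshold.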

Additional observations from a re-analysis of the deposited data

How the results depend on the processing

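No collagen chain with a call changed sign under any alternative that was run: 273 of 330 refitted calls were kept for injury in PCA and 115 of 154 for PCA against AC in controls. The chains called in all 22 fits were Col2a1, Col5a1, Col9a1, Col9a2 and Col10a1 for injury in PCA, and Col2a1 and Col17a1 for PCA against AC in controls. The 15 calls for injury in PCA became 8 at an adjusted p threshold of 0.01 and 7 without the 3 thyroid-rich arrays, and 9 to 15 with an array left out (9 without control PCA array 1). The 7 calls in controls became 2 at 0.01, and 3 to 8 with an array left out. For injury in AC the 0 calls became 0 to 2 with an array left out, and for the difference between both effects 0 to 3. The cause of these changes was not tested, except that a stricter threshold lowers a count by construction.

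Replicate numbers were not taken to pair the samples: the labels do not tie them to rats, and correlations of the deviations of same-numbered arrays ran from -0.393 to 0.339. Injured PCA and injured AC arrays correlated at -0.393, 0.339 and 0.269 for numbers 1, 2 and 3, so rats shared between the muscles cannot be told from these values. With the replicate block, 12 chains were called for injury in PCA, 0 for injury in AC, 0 for the difference and 4 for PCA against AC in controls. Over all genes, the 3697 calls for injury in PCA ranged from 1865 to 3906, the 274 for injury in AC from 10 to 703, the 22 for the difference from 0 to 406, and the 1523 in controls from 560 to 2626.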
